A study of Homo sapiens with 4 samples.

Results

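LGR4-/- clone 2 was compared with LGR4-/- clone 1, both derived from the H1 human embryonic stem cell line and collected at day 2 of hematopoietic differentiation, to describe which functions differed between a pair of lines of the same genotype that keep different amounts of LGR4 RNA. Each clone gave 1 library, so the comparison used 2 of the 4 libraries of the series. Of 17894 genes listed, the 12697 with a mean of at least 1 FPKM over the 4 libraries were measured. FPKM is a count of fragments scaled for the length of the transcript and the size of the library, so levels can be compared between genes and libraries. The clones received no R-spondin2. The other 2 libraries were wild-type H1 cells at day 2, an untreated control and cells given 20 ng/mL R-spondin2 for the first 1 day, and they are used as a scale. All 4 cultures grew on mAGM-S3 mouse stromal cells in medium with serum, and human cells were enriched by sorting for TRA-1-85, a human surface antigen. The labels number the LGR4-/- lines 1 and 2, and the sources used here do not give how they were made or whether they differ in passage. With 1 library each, a difference between the clones and a difference between any pair of cultures or libraries cannot be told apart, and no p-value is given.

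LGR4 is a receptor for R-spondins, secreted proteins that strengthen WNT signaling. When an R-spondin binds an LGR receptor, the ubiquitin ligases ZNRF3 and RNF43 are cleared from the cell surface, so that Frizzled WNT receptors are retained there. WNT, together with BMP and NODAL, is known to drive pluripotent cells through the primitive streak into mesoderm, from which blood and vessel precursors arise.

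Values of a gene are given in the order clone 1, clone 2, control and R-spondin2. A difference is log2(FPKM+1) in clone 2 minus that in clone 1, and a gene was called when the difference was at least 1 in either direction, referred to as 2-fold. The added 1 FPKM makes the difference of a low gene smaller than that of its FPKM. The depth was estimated from the step size of low FPKM values at 8850000 to 9040000 reads a library, and where a gene has 1 transcript length, the reads behind its FPKM give a 95% interval of the ratio between the clones. These intervals cover counting error only, not the spread between cultures.

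LGR4 (gene 55366) RNA was reduced but present in both clones, at 7.40 and 13.9 FPKM, against 21.8 and 24.3 FPKM in the wild-type libraries. Both clones lay below both wild-type libraries, and clone 2 held 1.89 times the LGR4 level of clone 1. The difference was 0.83. About 341 reads in clone 1 and 643 in clone 2 gave a log2 ratio of 0.92 with an interval of 0.73 to 1.11. A gene edited at the DNA level can still be transcribed, so the RNA level does not show how much receptor protein either clone makes.

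The other receptor of the family that was measured, LGR5, which is itself a WNT target, followed the same order, at 4.85, 9.78, 36.7 and 46.3 FPKM, with a difference of 0.88. RSPO3, an R-spondin made by the cells, was at 0.77, 1.69, 4.27 and 5.93 FPKM. RSPO4 ran the other way, at 5.71, 3.93, 3.42 and 3.10 FPKM, with a difference of -0.44. The ubiquitin ligases differed little. ZNRF3 was at 8.12 and 7.80 FPKM in the clones and 7.61 FPKM in the control, and RNF43 was at 0.81 and 1.01 FPKM. RSPO1, RSPO2 and LGR6 were under the filter. The median of the 6 measured members was 0.38, and of all 9 listed 0.049.

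**Figure D1:**
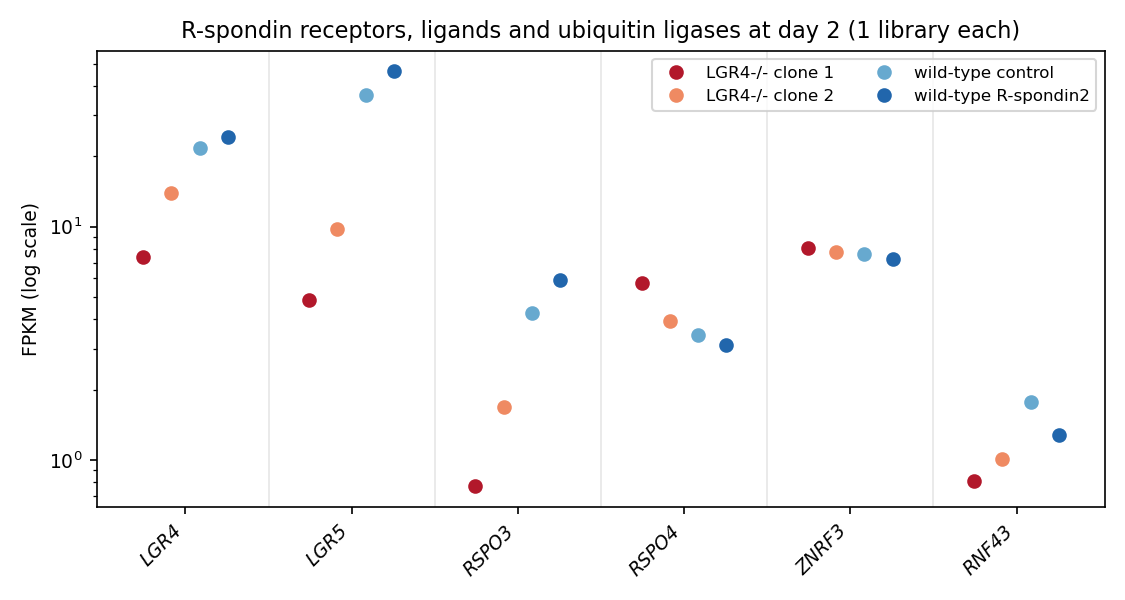
FPKM on a log axis of the 6 measured members of the R-spondin receptor system, 1 point per library. LGR4, LGR5 and RSPO3 stand in the order clone 1, clone 2, control, R-spondin2, RSPO4 stands in the reverse order, and ZNRF3 lies between 7.28 and 8.12 FPKM in all 4 libraries.

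Across all genes the clones were close. The median difference was -0.003 and its SD 0.22, against an SD of 0.21 between R-spondin2 and control, a pair that shares no library with the clones. At least 2-fold higher levels in clone 2 were seen for 22 genes, 0.173% of those measured, and at least 2-fold lower levels for 10 genes, 0.0788%. In the wild-type pair 28 genes passed 2-fold in either direction, 0.221%, against 32 genes, 0.252%, between the clones, and 6 of the 28 (0.0473% of genes) were higher with R-spondin2. At 1.5-fold, 171 genes (1.35%) were higher and 135 genes (1.06%) lower in clone 2, in all 2.41%. With R-spondin2 68 genes (0.536%) were higher and 186 genes (1.46%) lower at this size, in all 2.00%. The SD and the shares past each size were thus close in the 2 pairs. Counting error of low genes enters both pairs, so these values do not measure the size of either effect. Genes that differed most between the clones are described below. Just short of 2-fold higher lay NOG (0.99), FAM89A (0.98) and HIST1H2BO (0.98), and just short of 2-fold lower LOC101927572 (-0.99), TRIM39-RPP21 (-0.98) and TAC3 (-0.98).

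Of the 32 genes past 2-fold, 14 were set apart. They overlap another listed gene, have a near-identical copy or, for LOC102723360, were taken by name alone. Where genes overlap or nearly match, reads can be divided between partners differently in each library. SMIM11A was listed at 0 in every library except clone 2, where it reached 4.70 FPKM, while its copy SMIM11B was at 10.9 and 5.40 FPKM in clones 1 and 2. Their sum differed by -0.10. In the same way the sums differed by -0.15 for MSANTD3-TMEFF1 with MSANTD3 and TMEFF1, by -0.04 for BIVM-ERCC5 with its 2 partners and by 0.04 for ABHD14A-ACY1 with its 2 partners. PLA2G4B (difference -2.04) and the read-through gene JMJD7-PLA2G4B (1.69) moved in opposite directions, and with JMJD7 their sum differed by -0.40. CHRFAM7A, a partial copy of the nicotinic receptor gene CHRNA7, differed by -1.29, and the pair summed by -0.62. The sums for RPL10L and NARR with their partners both differed by -0.03. The histone H4 genes HIST1H4I (0.97 and 3.99 FPKM in the clones) and HIST1H4H (2.27 and 6.26 FPKM) and the NPIP family gene NPIPB15 (2.02 and 0.41 FPKM) also have near copies, and LOC102723360, an uncharacterized gene, was listed at 0 in clone 1 and at 2.10 FPKM in clone 2. These genes were set apart by their names, and no partner was summed for them. The other 13 higher and 5 lower genes have no such partner among those checked.

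**Figure D2:**
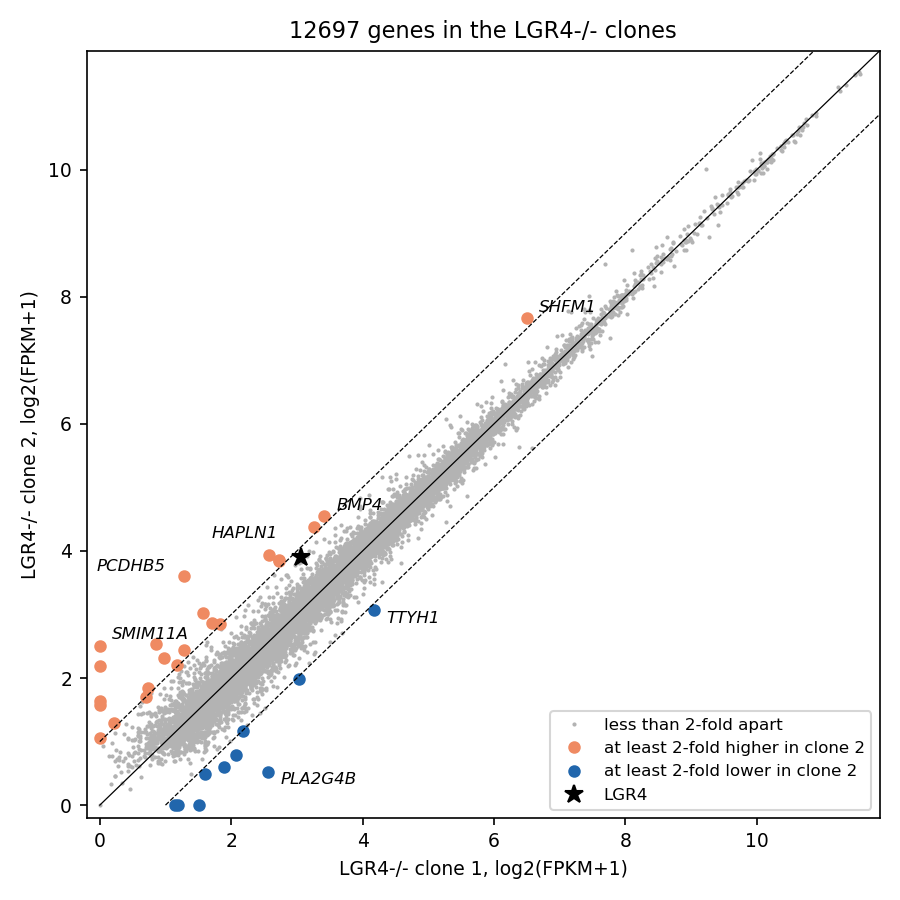
Level of each of 12697 genes in clone 1 (horizontal) and clone 2 (vertical), both as log2(FPKM+1), with the diagonal of equal levels solid and the 2-fold lines dashed. Most of the 22 genes above and 10 genes below the lines sit at low levels, SHFM1 is the highest of them, and LGR4 (star) lies inside the upper line.

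Regulators of mesoderm were among the genes past 2-fold higher in clone 2. MESP1, a transcription factor of nascent cardiovascular mesoderm, was at 5.64, 13.4, 38.5 and 57.3 FPKM. HAND1 (gene 9421), a factor of lateral and extraembryonic mesoderm, was at 8.59, 19.8, 70.1 and 99.9 FPKM. MSX1, a homeobox gene downstream of BMP, was at 5.65, 13.5, 40.4 and 51.8 FPKM. In each of these genes clone 2 was above clone 1 and both clones were below both wild-type libraries. Their differences were 1.12, 1.11 and 1.13, with read ratio intervals of 0.94 to 1.58, 0.91 to 1.51 and 0.91 to 1.62 on the log2 scale.

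BMP4, the ligand that induces mesoderm, was at 9.65, 22.5, 67.4 and 98.3 FPKM, a difference of 1.14. HLX, a homeobox gene of mesenchyme, was at 1.26, 3.63, 12.5 and 14.0 FPKM. These too kept the order of the mesoderm factors.

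All 32 genes of the primitive streak and nascent mesoderm list were higher in clone 2, by a median of 0.50, against -0.003 over all measured genes. Of them 11 passed 1.5-fold, against 1.35% of all measured genes. In 26 of the 32 the level rose from clone 1 through clone 2 and control to R-spondin2, an order held by 13.9% of all measured genes. All measured genes include those lower in clone 2, which cannot hold this order. The list was chosen with earlier results of these data known, so its shares are a description and not a test. T, the brachyury gene of the streak, was at 37.6, 66.5, 70.3 and 77.8 FPKM, so clone 2 was near the control while clone 1 lay apart. LHX1 (difference 0.87), GATA4 (0.83), SNAI2 (0.78), APLNR (0.77), TBX3 (0.71), MSGN1 (0.68), EVX1 (0.65) and GATA6 (0.62) also passed 1.5-fold. MIXL1 was at 174, 257, 377 and 528 FPKM and EOMES at 54.6, 77.1, 117 and 157 FPKM, both just short of that. MSGN1 rested on about 8 and 15 reads in the clones, with a read ratio interval of -0.42 to 2.35, which includes 0. Among the smallest differences were those of DLL1 (0.06) and WNT8A (0.18). NODAL, the ligand that maintains the streak, differed in order. It was at 90.8, 124, 84.2 and 91.7 FPKM, highest in clone 2.

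All 13 measured genes of the lateral plate and cardiac list were higher in clone 2. All 13 were in the order from clone 1 to R-spondin2, against 13.9% of all measured genes. Of them 10 were past 1.5-fold higher, against 1.35% of all measured genes. Their median was 0.75. This median was the highest of the 44 lists at the settings used here and after rescaling, but not with 0.1 FPKM added (0.93, against 0.94 for HOX and CDX), without a filter (0.48, against 0.50 for the primitive streak list) or at a mean of at least 5 FPKM (0.82 over 8 genes, against 0.83 over 3 R-spondin list genes). Besides BMP4, MSX1 and HAND1 they included MSX2 (1.30, 3.16, 5.92 and 8.09 FPKM), IRX3 (4.30, 8.35, 27.4 and 33.3 FPKM) and NKX2-5 (0.34, 1.09, 3.56 and 3.94 FPKM). Later cardiac genes such as TBX5, ISL1 and MEF2C were under the filter. This list shares HAND1, GATA4, GATA6, TBX3 and FOXF1 with the mesoderm list. The filter used all 4 libraries, and NKX2-5, FOXF1, HAND2 and MEIS2 reached a mean of 1 FPKM only through the wild-type libraries. MEIS2 was at 0.59, 0.70, 2.58 and 2.62 FPKM. Their place below the wild-type libraries was thus partly set by the filter, and the list was chosen with earlier results of these data known.

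**Figure D3:**
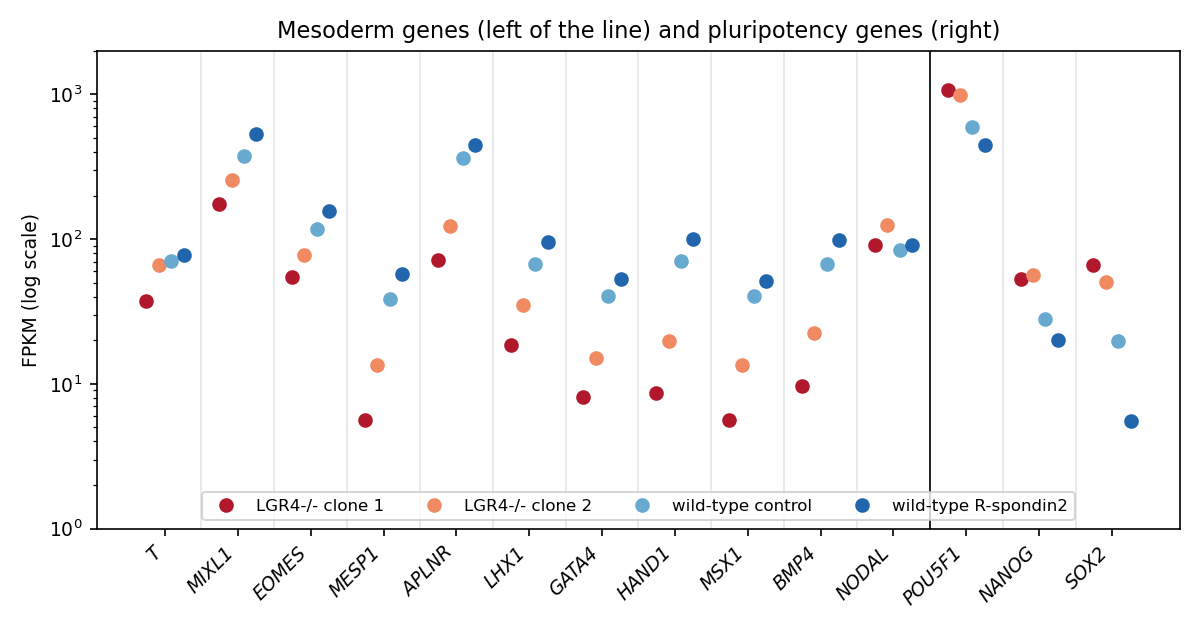
FPKM on a log axis, 1 point per library, of 11 mesoderm genes and 3 pluripotency genes. In the mesoderm genes other than NODAL the clones stand below the wild-type libraries with clone 2 above clone 1, while POU5F1 and NANOG are at nearly the same level in both clones.

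The labelled cell state was checked against markers. The summed FPKM of T, MIXL1, EOMES, MESP1 and APLNR was 343 in clone 1 and 537 in clone 2, against 965 in the control and 1264 with R-spondin2. The sum of POU5F1, NANOG and SOX2, genes of undifferentiated cells, was 1187 and 1095 in the clones, against 645 and 472 in the wild-type libraries. The mesoderm sum differed more between the clones than the sum of undifferentiated markers. POU5F1 was at 1068 and 988 FPKM in the clones, NANOG at 52.8 and 56.4 FPKM and SOX2 at 66.0 and 50.7 FPKM. PAX6 and SOX1, which mark neural cells, reached at most 0.47 FPKM in any library. In RNA of bulk cells, fewer cells of a type and less RNA per cell cannot be told apart.

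In the wider pluripotency list of 26 measured genes the median difference was -0.04, with 12 higher and 14 lower. TBX3, shared with the mesoderm list, was the only member past 1.5-fold. FOXD3 was at 6.56, 4.47, 1.99 and 0.92 FPKM and TERF1, a telomere protein, at 180, 133, 65.3 and 41.9 FPKM. Among 15 neural and epiblast factors 13 were lower in clone 2, by a median of -0.19. POU3F1, a factor of late epiblast and neural fate, was at 4.06, 2.19, 1.06 and 0.78 FPKM, and HESX1 at 2.87, 1.55, 0.86 and 0.69 FPKM. These were the 2 members past 1.5-fold lower. MSX1 was the member past it in the other direction.

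The WNT pathway genes were mostly higher in clone 2, but unevenly. All 9 measured WNT ligands were higher, with a median of 0.42. WNT5A, a ligand of mesoderm cell movement, was at 6.12, 11.3, 31.5 and 42.5 FPKM, and WNT5B at 8.53, 14.9, 16.9 and 14.4 FPKM. WNT3 and WNT3A, ligands of the streak, differed by 0.57 and 0.48, short of 1.5-fold. Both WNT5 genes were past it. Over all 19 listed ligands, most of them near 0, the median was 0.086.

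Of 19 feedback and target genes of the WNT/beta-catenin pathway 17 were higher, with a median of 0.40, and 6 passed 1.5-fold. LEF1, a DNA-binding partner of beta-catenin, was at 2.60, 5.86, 8.95 and 10.3 FPKM, a difference of 0.93. CDX1 was at 11.0, 19.6, 24.4 and 21.6 FPKM and NKD1, a feedback inhibitor, at 5.22, 8.70, 19.3 and 22.2 FPKM. Some other targets of this list differed less. AXIN2 was at 17.6, 20.8, 20.2 and 19.3 FPKM, a difference of 0.23 with a read ratio interval of 0.09 to 0.39. MYC differed by 0.14 and CCND1 by 0.19. TNFRSF19 was the largest exception, at -0.40.

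The Frizzled and LRP receptors had a median of 0.03, with 8 of 15 higher. FZD7, the most abundant of them, was at 65.2 and 69.4 FPKM in the clones. FZD9 was the only member past 1.5-fold, at 2.33 and 1.11 FPKM, and ROR1, a WNT5A receptor, was at 16.1 and 11.1 FPKM. The 8 measured secreted antagonists had a median of 0.23, with 2 higher and 1 lower past 1.5-fold, and all 14 listed had a median of 0.047. CER1, which binds NODAL, BMP and WNT, was at 599, 1034, 2395 and 3467 FPKM, and DKK1 at 39.4, 62.0, 139 and 173 FPKM. SFRP1, a decoy for WNT that is high in undifferentiated cells, ran the other way, at 82.3, 48.9, 28.8 and 18.1 FPKM, a difference of -0.74 with a read ratio interval of -0.83 to -0.67. SFRP2 was at 149 and 143 FPKM.

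BMP pathway genes were higher in clone 2 in part. The 19 measured BMP receptors and targets had a median of 0.35 with 6 past 1.5-fold, and the 13 ligands and modulators 0.21 with 4 past it. Of those 6, MSX1, HAND1, MSX2 and TBX3 are also in the lateral plate list. The ID genes of the same list differed less. ID1 was at 193 and 176 FPKM in the clones, a difference of -0.13, and ID2, ID3 and ID4 differed by 0.35, 0.18 and 0.12. The median of the ligands and modulators was 0.77 over the 7 that averaged 5 FPKM or more and 0.068 over all 23 listed genes. BMP2 was at 16.2, 28.4, 71.6 and 95.8 FPKM. The BMP inhibitor NOG was at 0.71, 2.40, 9.52 and 13.4 FPKM and BMPER at 2.24, 4.64, 16.6 and 19.5 FPKM, so ligands and inhibitors were higher together. SMAD6, a feedback inhibitor, was at 4.89 and 7.93 FPKM. The 24 TGF-beta genes had a median of -0.03. Among 20 NODAL and activin genes the median was 0.09, and LEFTY2, a NODAL inhibitor, was lower in clone 2, at 13.9 and 8.66 FPKM. FGF ligands and receptors had a median of -0.06, with FGF17 at 52.6, 78.1, 95.2 and 128 FPKM. The 21 ERK feedback genes had a median of 0.19 and none past 1.5-fold.

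Genes of blood and vessel precursors differed less. The 15 measured hemato-endothelial genes had a median of 0.16, with 9 higher and 6 lower, and the median over all 27 listed genes was 0. APLNR, a receptor that marks mesoderm with blood and vessel potential, was at 71.2, 122, 362 and 444 FPKM. GATA2 was at 0.03, 0.90, 1.48 and 1.85 FPKM, and RUNX1 at 0.61, 1.29, 3.96 and 3.71 FPKM. Both reached a mean of 1 FPKM only through the wild-type libraries. KDR, the VEGF receptor, was at 26.8 and 32.9 FPKM. TAL1, CD34 and CDH5 stayed at or below 0.22 FPKM everywhere. APELA, a ligand of APLNR made by undifferentiated cells, was lower in clone 2, at 11.9, 7.23, 4.84 and 1.71 FPKM. The 7 measured globins and glycophorins had a median of 0.26, and all 14 listed a median of 0.043. GYPB, a glycophorin, was the only one past 1.5-fold, at 1.36, 3.30, 14.3 and 16.1 FPKM. It has close copies, of which GYPE was at 1.06 and 0.91 FPKM in the clones, so reads may be divided between them.

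The HOX and CDX genes, which set position along the body axis, had a median of 0.53 over 8 measured genes, all higher. HOXB6 was at 0.40, 1.35, 6.04 and 8.61 FPKM and HOXB2 at 0.35, 1.06, 6.96 and 8.50 FPKM. With CDX1 they were the 3 genes past 1.5-fold. HOXB6 rested on about 6 and 20 reads in the clones and HOXB2 on about 5 and 15. HOXB6, HOXB2 and HOXB3 reached a mean of 1 FPKM only through the wild-type libraries. Their place below those libraries was thus partly set by the filter. The list's median moved with the settings, to 0.94 with 0.1 FPKM added in place of 1 and to 0.098 over all 25 listed genes.

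The definitive endoderm list had a median of 0.13. SOX17 was at 23.6, 27.2, 47.1 and 49.9 FPKM and FOXA2 at 11.9, 11.6, 9.05 and 8.44 FPKM, differences of 0.20 and -0.03. HHEX, another gene that endoderm expresses, was at 6.13, 9.69, 8.28 and 11.0 FPKM, a difference of 0.58, just short of 1.5-fold. GATA4, GATA6 and CER1, which mesoderm also expresses, passed 1.5-fold.

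Matrix and adhesion genes held some of the largest differences. HAPLN1, which links hyaluronan to proteoglycans, was at 4.99, 14.3, 61.5 and 83.0 FPKM, a difference of 1.35 with a read ratio interval of 1.31 to 1.73. HAS2, the hyaluronan synthase, was at 43.9, 68.5, 116 and 164 FPKM. HAPLN3, another link protein, was in the reverse order, at 17.1, 10.2, 4.68 and 3.30 FPKM. The list as a whole had a median of -0.04. HS3ST1, a heparan sulfate sulfotransferase, was at 1.42, 4.45, 10.7 and 13.9 FPKM.

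The collagen and stroma list had a median of 0.27 over 14 genes. LUM, the proteoglycan lumican, was at 0.16, 1.45, 5.49 and 9.11 FPKM, COL5A2 at 20.3, 34.9, 96.5 and 135 FPKM and COL5A1 at 20.7, 33.3, 91.3 and 129 FPKM. LUM rested on about 4 and 39 reads in the clones and reached a mean of 1 FPKM only through the wild-type libraries. Because the cells grew on stroma, stromal markers were summed. COL1A1, COL1A2, COL3A1, DCN, LUM, POSTN, PDGFRB and THY1 came to 216 and 247 FPKM in the clones and 238 and 297 FPKM in the wild-type libraries. COL1A1 was at 74.8 and 74.6 FPKM, and the fibroblast markers DCN and POSTN were below 0.40 FPKM in all libraries. The part of stromal RNA in LUM and the collagens was not tested.

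Migration and guidance genes were higher in part. NRP1, a receptor for semaphorins and VEGF, was at 2.11, 4.95, 15.1 and 20.1 FPKM, and PLXNA2 at 9.60, 17.1, 44.1 and 55.8 FPKM. VIM, a mesenchymal filament protein, was at 144, 216, 524 and 670 FPKM, a difference of 0.58 with a read ratio interval of 0.51 to 0.66. The medians were 0.10 for guidance genes, 0.14 for epithelial-mesenchymal transition, 0.07 for basement membrane and integrins and 0.08 for the apelin and receptor kinase list. ITGA9 (3.44 and 6.07 FPKM) was the only integrin past 1.5-fold, and ITGA5 was at 29.7 and 44.8 FPKM.

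Housekeeping functions were level between the clones. Medians were -0.03 for 73 cytosolic ribosomal protein genes, 0.004 for 47 nuclear respiratory chain genes, 0.006 for 44 cell cycle genes, 0.04 for 25 cholesterol synthesis genes, -0.04 for 31 hypoxia and glycolysis genes, 0.04 for 16 tubulin isotypes and 0.01 for 22 imprinted genes. None of the genes in these 7 lists passed 1.5-fold. Stress lists had slightly positive medians, 0.12 for the unfolded protein and amino acid response, 0.15 for heat shock and immediate early genes and 0.14 for p53 targets. DDIT3, a stress-induced transcription factor, was the only gene of those 3 lists past 1.5-fold, and it was lower in clone 2, at 5.19 and 2.66 FPKM. Interferon response genes had a median of 0, with OAS1 at 0.14, 0.98, 4.46 and 7.83 FPKM, and DNA methylation genes 0.007. OAS1 reached a mean of 1 FPKM only through the wild-type libraries.

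The remaining lists lay between -0.15 and 0.13. Retinoic acid genes had a median of 0.13, Notch genes -0.05, the insulin-like growth factor axis -0.04, neural crest and neuronal genes -0.06, germ line genes -0.07 and trophoblast and amnion genes -0.15. IGFBP3, which binds insulin-like growth factors, was lower in clone 2, at 5.52, 2.63, 1.57 and 1.18 FPKM, and IGFBP7 was higher, at 5.78, 10.8, 8.08 and 11.7 FPKM. HES4, a Notch-family repressor, was at 2.32 and 1.20 FPKM.

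**Figure D4:**
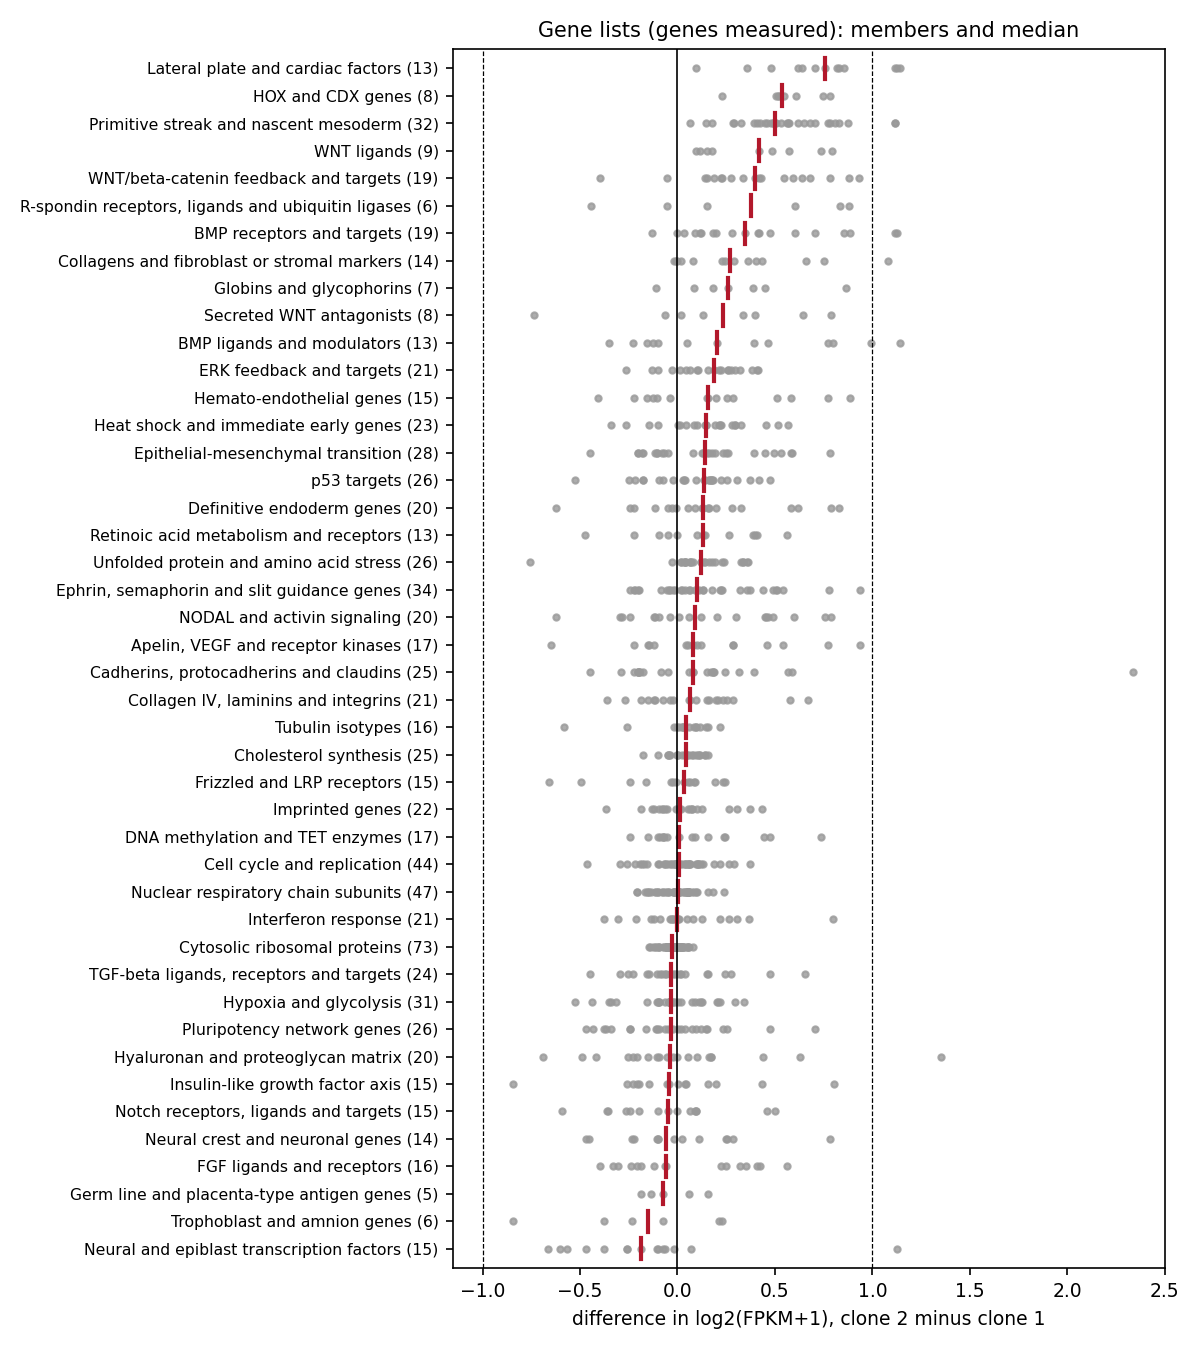
Difference in log2(FPKM+1), clone 2 minus clone 1, of every measured member (grey) of 44 gene lists with the list median (red bar), ordered by median, with the number of measured genes in parentheses and dashed lines at 2-fold. The lists of lateral plate, HOX, primitive streak and WNT genes lie to the right of 0 and the ribosomal, respiratory and cell cycle lists lie around it. Some genes stand in more than 1 list.

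The process annotation deposited with the files groups genes in another way. Of 595 process terms carried by 10 to 200 measured genes, the median was highest for regulation of endothelial cell migration (0.28, 16 genes), embryonic organ morphogenesis (0.25, 19 genes) and fibroblast growth factor receptor signaling (0.25, 15 genes). In the endothelial term 10 of the 16 genes were higher, with BMP4 and WNT5A the largest. The largest differences in the fibroblast growth factor term were those of NOG, WNT5A, SULF2 and WNT4. The list of FGF ligands and receptors itself had a median of -0.06. The term median was lowest for cellular ion homeostasis (-0.21, 10 genes), positive regulation of leukocyte chemotaxis (-0.21, 12 genes) and regulation of ion transmembrane transporter activity (-0.16, 16 genes).

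The clones were also placed against the wild-type libraries. Of the 171 genes at least 1.5-fold higher in clone 2, the control was above both clones for 114 (66.7%), between them for 51 and below both for 6. Over all 6243 genes that were higher in clone 2 by any amount, the control was above both for 46.7%. Of the 135 genes at least 1.5-fold lower, the control was below both clones for 64 (47.4%), between them for 65 and above both for 6. Over all 6400 genes that were lower by any amount, the control was below both for 53.3%, so this share was not raised among the larger differences. R-spondin2 was above control for 134 of the 171 (78.4%), against 57.6% of the 6243, and for 43 of the 135 (31.9%), against 38.2% of the 6400. At 1.5-fold, 13 genes were higher both in clone 2 and with R-spondin2, which is 7.60% of the clone genes and 19.1% of the R-spondin2 genes, and 22 genes were lower in both, 16.3% and 11.8%. In opposite directions there were 4 genes each way, 4 of the 171 lower with R-spondin2 and 4 of the 135 higher with it. Over all measured genes 0.536% were higher and 1.46% lower with R-spondin2 at this size. The overlaps in the same direction and those in opposite directions both lay above these shares. Across all 12697 genes the 2 differences had a Pearson r of 0.28 and a Spearman rho of 0.27, given as a description. The clones and the wild-type pair share no library, but all 4 share a cell line and a protocol.

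Several of the larger differences did not keep that order. PCDHB5 (gene 26167), a protocadherin of the beta cluster, reached 1.42 and 11.2 FPKM in clones 1 and 2, against 3.05 and 3.43 FPKM in the wild-type libraries. Clone 2 was above and clone 1 below the other libraries. The difference was 2.34, the highest of the genes that have no overlapping or near-identical partner among those checked, on about 43 and 339 reads, with a read ratio interval of 2.52 to 3.47. Clustered protocadherins are adhesion molecules, and a neuron is known to use only a few of the cluster's promoters. The list of cadherins, protocadherins and claudins had a median of 0.08 over 25 genes, and CDH11, a mesenchymal cadherin with a difference of 0.59, was the other member of that list past 1.5-fold.

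Outside the list, the clustered protocadherins PCDHA10 (1.69 and 3.25 FPKM in the clones, a difference of 0.66) and PCDHB16 (0.60) were also past 1.5-fold. The other measured beta genes differed less than PCDHB5. PCDHB2 was at 12.2, 14.6, 13.6 and 12.6 FPKM, PCDHB16 at 0.90, 1.88, 1.20 and 1.32 FPKM, PCDHB15 at 2.68, 3.53, 2.18 and 2.60 FPKM and PCDHB9 at 1.90, 1.83, 1.13 and 1.72 FPKM. Their differences ran from -0.04 to 0.60. The summed FPKM of the 16 listed beta genes was 22.5 in clone 1 and 36.6 in clone 2, and that of the alpha and gamma clusters 17.9 and 21.4, and 35.4 and 40.2. The beta genes are similar in sequence, so some of their reads may be divided between them.

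The promoters of the cluster carry a conserved element, and the windows before the start sites are shown because PCDHB5 differed while its neighbors with the same element did not differ as much. Capitals mark its core, TGGCGCT, searched on both strands. It was found in 12 of 14 beta promoters (85.7%), against 4.67% of the 10352 promoters of measured genes, in the 250 bases before the RefSeq start (GRCh38.p14). The PCDHB5 window is chr5:141134956-141135205 and those of the other 4 genes are 47 bases around the core, all on the plus strand.
PCDHB5: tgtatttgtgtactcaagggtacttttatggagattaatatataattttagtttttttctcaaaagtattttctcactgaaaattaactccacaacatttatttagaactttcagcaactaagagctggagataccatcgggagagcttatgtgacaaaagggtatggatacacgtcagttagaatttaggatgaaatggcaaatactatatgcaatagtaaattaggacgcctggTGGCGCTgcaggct
PCDHB2: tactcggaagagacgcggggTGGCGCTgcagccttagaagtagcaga
PCDHB16: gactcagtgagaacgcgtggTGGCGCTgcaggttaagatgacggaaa
PCDHB15: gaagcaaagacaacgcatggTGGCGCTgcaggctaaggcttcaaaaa
PCDHB9: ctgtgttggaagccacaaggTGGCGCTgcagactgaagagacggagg
The core is the same 7 letters in these 5 genes. In PCDHB5 it begins 14 bases before the start, and in the others 58 to 74 bases before it. These are reference sequences, not read from either clone, so a link between the element or its position and the clone difference was not tested.

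SHFM1 (gene 7979), which encodes a small subunit of the proteasome lid, was the most abundant gene past 2-fold. Its level was 89.6 FPKM in clone 1, and 201, 173 and 177 FPKM in clone 2, control and R-spondin2. Here clone 1 alone stood apart, and clone 2 was near the wild-type libraries. The difference was 1.16, on about 1043 and 2341 reads, with a read ratio interval of 1.06 to 1.27. The 10 nearest measured genes on chromosome 7 differed by -0.37 to 0.34, with SLC25A13 on one side at 40.3 and 42.0 FPKM and SDHAF3 on the other at 7.62 and 7.34 FPKM.

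BIK (gene 638), an inducer of apoptosis, was listed at 3.19 and 0.72 FPKM in clones 1 and 2, and at 0.35 and 0.36 FPKM in the wild-type libraries. Clone 1 again stood apart, on about 27 and 6 reads, and the read ratio interval was -3.73 to -0.86. Its 10 nearest measured genes on chromosome 22 differed by -0.37 to 0.14. TTYH1, a membrane channel of neural and undifferentiated cells, was at 17.0, 7.38, 4.66 and 2.03 FPKM, the reverse of the mesoderm order. CST1, a secreted protease inhibitor, was at 1.97, 7.15, 13.1 and 7.91 FPKM, and PKIB, an inhibitor of protein kinase A, at 0.63, 2.27, 2.42 and 2.21 FPKM. TSGA10IP was at 3.51, 1.25, 1.36 and 0.47 FPKM. Low genes listed at 0 in one clone were POP3 (0 and 1.09 FPKM), ADIRF (1.21 and 0 FPKM) and GNG8 (1.86 and 0 FPKM), the last on about 4 reads in clone 1.

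**Figure D5:**
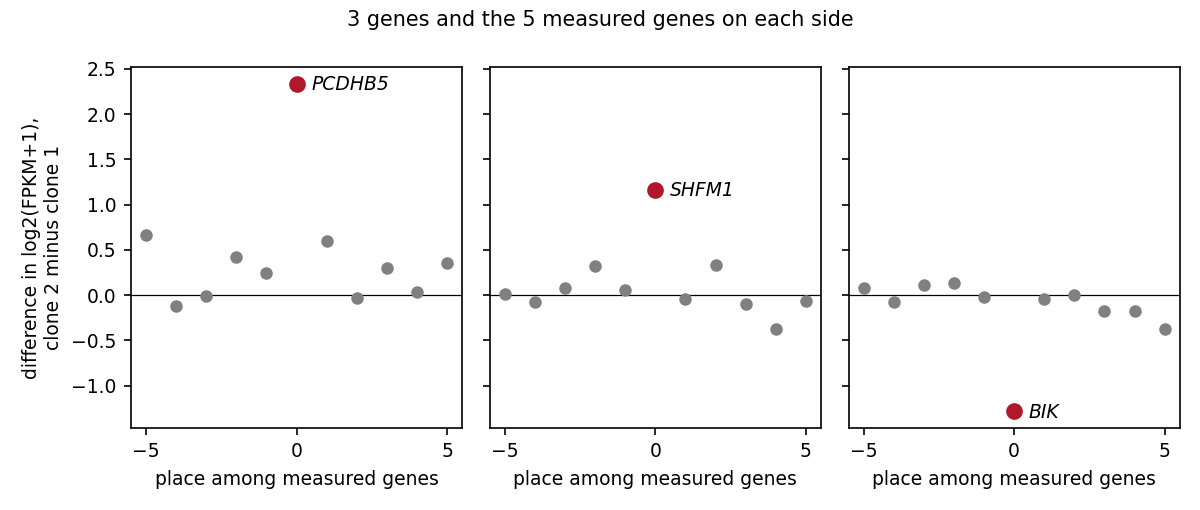
Difference in log2(FPKM+1), clone 2 minus clone 1, of PCDHB5, SHFM1 and BIK (red) and of the 5 measured genes on each side in chromosome order (grey). The 3 genes lie at 2.34, 1.16 and -1.28 while their neighbors lie between -0.37 and 0.66.

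Chromosome medians differed little between the clones. Medians ran from -0.073 on chromosome 19 to 0.038 on chromosome 13, and on chromosome 19 the wild-type pair had a median of -0.050. Chromosome 19 also held the most genes at least 1.5-fold lower in clone 2, 23 of its 977, against 135 of all 12697 measured genes. Over runs of 51 neighboring measured genes the median ran from -0.14, around MED25 on chromosome 19, to 0.10, around APELA on chromosome 4. In the wild-type pair such runs reached from -0.12 to 0.12.

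The promoters of the genes that were higher in clone 2 were searched for the TCF/LEF core, CTTTGA on either strand, the motif bound by the partners of beta-catenin. It was present in 7.5% of 120 promoters of genes at least 1.5-fold higher, in 7.84% of 102 promoters of genes at least 1.5-fold lower and in 7.25% of all 10352, so the 3 shares were close. The HAND1 promoter is shown as a gene that differed by over 2-fold and holds 1 match (capitals, here read as its complement TCAAAG), 45 bases before the start, at chr5:154478228-154478477 on the minus strand of GRCh38.p14.
HAND1: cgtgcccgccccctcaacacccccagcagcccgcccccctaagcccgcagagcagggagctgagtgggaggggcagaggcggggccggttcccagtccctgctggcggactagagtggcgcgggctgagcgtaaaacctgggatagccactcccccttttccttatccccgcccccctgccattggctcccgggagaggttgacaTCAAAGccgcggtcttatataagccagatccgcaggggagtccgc
The promoters of MSX1, HAPLN1 and SHFM1 held no match in this window.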

How the data were processed

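RNA of day 2 cells was sequenced as 4 libraries, 1 per condition, from a TruSeq kit. The authors deposited FPKM per gene to 2 decimals. The submitters' processing notes name BWA, Bowtie, RSEM and hg19, without versions or roles. Depth is not given in the sources used here.

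From these values log2(FPKM+1) was computed for genes whose mean over the 4 libraries reached 1 FPKM, and clone 2 minus clone 1 was taken with no test. Gene names were used as given in the files. Depth was found as the number of reads that brings most FPKM values under 0.6 of genes shorter than 1500 bases within 0.2 of a whole read, with lengths from GENCODE 29. This held for 77.2% to 79.4% of values, against 32.4% to 42.1% with lengths shuffled. Reads implied by it give exact Clopper-Pearson 95% intervals. The scripts were tested on simulated data. Promoters are from RefSeq (GRCh38.p14), since no hg19 genome was used here, and 10352 measured genes matched by symbol.

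The members and all 44 gene lists were chosen with earlier results of these data known. Genes named are the R-spondin list, genes past 2-fold, those just short of it, list members past 1.5-fold or with the largest differences, up to 8 a list, and cell type markers. Levels that separate lists, such as AXIN2, POU5F1 or COL1A1, and genes beside PCDHB5, SHFM1 and BIK were added after their values were seen. Partners were listed after the values were seen. Python 3.11.15, pandas 2.3.3 and scipy 1.17.1 were used. Some genes that met these rules are not reported here.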

Additional observations from a re-analysis of the deposited data

How the results depend on the processing

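The counts of genes past 2-fold moved with the settings. With 0.1 FPKM added in place of 1 they were 92 higher and 49 lower, at a mean of at least 5 FPKM 10 and 2, at 1.5-fold 171 and 135, and without genes that overlap or nearly match another, a setting chosen after the data were seen, 13 and 5, against 22 and 10. Without a filter they were 26 and 14, with the filter over the clones only 19 and 8, and with each library rescaled by its median ratio 22 and 9. The LGR4 difference of 0.83 was 0.91 with 0.1 FPKM added and 0.84 after rescaling. The WNT ligand median of 0.42 was 0.086 with no filter, and the HOX and CDX median of 0.53 was 0.94 with 0.1 FPKM added and 0.098 with no filter. With no filter medians were also 0.049 for the R-spondin list, 0.068 for BMP ligands and modulators, 0.047 for secreted antagonists, 0.043 for globins and glycophorins, 0.026 for retinoic acid genes, 0.008 for NODAL and activin genes, 0.15 for collagens, 0.48 for lateral plate genes and 0 for hemato-endothelial genes. At a mean of at least 5 FPKM they were 0.83 for the R-spondin list and 0.77 for BMP ligands and modulators, and the sign turned for neural crest genes (0.11) and for trophoblast genes (0.23, 1 gene). Of the 44 list medians, 44 kept their sign with 0.1 FPKM added, 43 after rescaling and 39 with no filter, and 38 of 43 did at a mean of at least 5 FPKM. Chromosome medians kept theirs for 20 of 23 at that filter. All 86 named genes compared kept their sign with 0.1 FPKM added and after rescaling. No paired analysis was possible because each group has 1 library. With 1 library a clone no error between cultures can be given, and at 8850000 to 9040000 estimated reads a library genes near 1 FPKM rest on few reads.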
